A study of Homo sapiens with 2 samples.

Results

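The genes described here encode the machinery of oxidative phosphorylation, the complexes I to V of the inner mitochondrial membrane. Electrons from NADH enter at complex I and electrons from succinate at complex II, both pass them to ubiquinone, and complexes III and IV carry them by way of cytochrome c to oxygen. The proton gradient built by complexes I, III and IV drives the rotary ATP synthase, complex V. Most subunits are encoded in the nucleus and a few in mitochondrial DNA, so the complexes are built from both sources. Ubiquinone carries a polyprenyl tail made from the same isoprenoid supply that squalene synthase, the FDFT1 product, turns towards sterols.

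Members were the probe sets whose only annotated gene symbol starts with NDUFA, NDUFB, NDUFC, NDUFS, NDUFV, UQCR, COX4, COX5, COX6, COX7, COX8 or ATP5, or is SDHA, SDHB, SDHC, SDHD or CYC1. The rule reads symbols alone and no signal. It took 174 of the 41091 probe sets with 1 annotated gene, and these stand for 91 of 19775 genes. By role they were 70 structural subunits (33 of complex I, 3 of II, 7 of III, 10 of IV and 17 of V), 8 complex I assembly factors with NDUFAF names, 7 alternative or additional complex IV genes, the ATP synthase inhibitor ATP5IF1, 3 antisense or divergent transcripts and 2 pseudogenes. NDUFS8, NDUFC2, SDHB, UQCRFS1 and UQCRH had no probe set that met the rule and were not analysed here. NDUFA4 is annotated under its current symbol COXFA4, which falls outside the rule.

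The study measured RNA of CL1-0, an established human lung adenocarcinoma cell line. The control sample was CL1-0 stably transduced with a control vector, and the other sample was CL1-0 stably transduced with an FDFT1 vector. Both were kept under puromycin for 2 weeks and grown at 37 °C in 5% CO2, and 6 µg of total RNA of each was labelled for 1 Affymetrix array. With 1 array per group there was no replicate, so no p-value and no replicate error exists for any gene, and each difference compares these 2 arrays only. The signal of the FDFT1 gene is not reported here, and the arrays were not used to check the overexpression.

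The values are MAS5 signals, the brightness of a probe set on a linear scale. Trimmed mean signals were 151 (control) and 142 (FDFT1). Log2 differences (FDFT1 minus control) were therefore centred, which moved each one up by 0.11, whereas the signals quoted are as deposited, the control first and FDFT1 second. A centred difference between 0 and 0.11 is therefore below 0 on the values as deposited. Each gene is represented by its brightest probe set, and the error given with a difference is the spread between probe sets of one gene in the same signal range. Where the mean log2 signal of a gene lay under 5 this error was 0.49; between 5 and 7 it was 0.30, between 7 and 9 it was 0.22, between 9 and 11 it was 0.16, and at 11 and above it was 0.097. It leaves out any difference between cultures. Signals under the median of 12.2 were set to that floor. Of the 9 alveolar type II markers 5 were measured: ABCA3 (79.9 and 55.6) and LAMP3 (53.0 and 58.8) were the brightest, and SFTPC (29.3 and 16.9), SFTPB (31.97 and 35.3) and NKX2-1 (31.1 and 29.3) were dimmer. SFTPA1, SFTPD, SLC34A2 and NAPSA gave no signal above the floor or had no probe set, so the alveolar type II markers were present at low signals in part and otherwise not seen. The epithelial markers KRT8 (at most 18.8), KRT18 (20.1 and 12.1) and EPCAM (5.63 and 14.4) were dim too, and CDH1 was under the floor. Of the blood, fibroblast and endothelial markers PTPRC was under the floor, DCN, HBB and PECAM1 lay between 12.4 and 22.7 and COL1A1 was at 65.5 and 83.0 on its brightest probe set. The other measured COL1A1 probe sets ran the other way, at 58.6 and 41.3 and at 24.3 and 13.2. The part of these markers in the results was not tested. In RNA of a whole culture, fewer expressing cells and less RNA per cell cannot be told apart.

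Promoter stretches of 7 subunit genes are shown first, because these genes include the highest and lowest subunits of complex I and the highest of complex II and hold the short motifs most often described for this gene set. NRF1 (nuclear respiratory factor 1) and the ETS factor GABPA are textbook activators of respiratory chain genes. Each stretch is 80 bases from RefSeq (GRCh38.p14), read 5′ to 3′ on the strand of the gene and lying wholly before the annotated start. Capitals mark NRF1 letters (GCGCATGCGC or the core GCATGCGC) and ETS letters (CCGGAAG), on either strand.
NDUFS1, chr2:206159558-206159637, minus strand: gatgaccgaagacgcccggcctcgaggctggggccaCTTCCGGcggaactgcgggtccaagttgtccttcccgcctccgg
NDUFA5, chr7:123557933-123558012, minus strand: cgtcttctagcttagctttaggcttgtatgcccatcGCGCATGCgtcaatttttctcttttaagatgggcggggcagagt
NDUFB7, chr19:14572067-14572146, minus strand: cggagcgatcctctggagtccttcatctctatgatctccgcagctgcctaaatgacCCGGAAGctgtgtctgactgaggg
NDUFA13, chr19:19516145-19516224, plus strand: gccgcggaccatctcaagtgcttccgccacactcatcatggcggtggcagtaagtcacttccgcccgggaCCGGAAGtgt
NDUFA1, chrX:119871749-119871828, plus strand: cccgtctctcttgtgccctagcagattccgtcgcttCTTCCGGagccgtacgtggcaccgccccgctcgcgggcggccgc
SDHD, chr11:112086728-112086807, plus strand: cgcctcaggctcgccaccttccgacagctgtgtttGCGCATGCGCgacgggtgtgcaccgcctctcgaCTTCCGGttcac
COX5B, chr2:97645890-97645969, plus strand: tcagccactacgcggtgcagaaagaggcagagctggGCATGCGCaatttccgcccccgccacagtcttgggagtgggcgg

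The stretches start from different signs of difference: the first pair belongs to the highest subunits of complex I, the next 3 to subunits among its lowest, SDHD to the highest subunit of complex II, and COX5B to a subunit with almost no difference. Motifs were counted in windows from 250 bases before to 50 bases after the start, for the 60 of 70 structural subunit genes with an entry (72 promoters). The ETS letters were in 20 of these 72 promoters (27.8%) and in 10.3% of all 35116 promoters, and the NRF1 core was in 14 (19.4%) against 3.05% of all. The 10-letter NRF1 palindrome, which contains the core, was in 4 (5.56%) against 1.24%. The YY1 letters AAGATGGC were in 12 (16.7%) against 2.89%, the GC box GGGCGG in 45 (62.5%) against 45%, and the CCAAT box in 22 (30.6%) against 34.6%. Median G and C content was 60.7% in these promoters and 58.7% in all. The ETS letters were found in genes on both sides of 0, NDUFS1 and NDUFB7 among them, but not in NDUFA5, the highest subunit. The 19 genes with the ETS letters had a median log2 difference of -0.0020, and the genes without them -0.035. For the NRF1 core the medians were 0.020 and -0.035. The NDUFA7 window held the YY1 letters and the GC box but neither NRF1 nor ETS letters. A match of letters is a description and no binding site was measured.

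As a whole, the genes of oxidative phosphorylation differed little between the arrays. Of the 91 genes, 88 were measured (a signal at or above the floor on at least 1 array), with 154 of the 174 probe sets. Their median log2 difference was -0.0086, with 42 genes above 0 and 46 below, beside a median of -0.0013 over all 12968 measured genes. Below 0 were 52.3% of the measured members and 50.2% of all measured genes. At least 2-fold higher was 1 member (all genes 0.571%) and at least 2-fold lower was 1 member (all genes 0.578%), both dim complex IV isoforms described later. A difference of at least 0.32 on the log2 scale was used as a smaller step. By it, 6 members were higher (all genes 12.5%) and 2 were lower (all genes 11.7%). The members past 0.32 included a single structural subunit, NDUFA5.

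**Figure D1:**
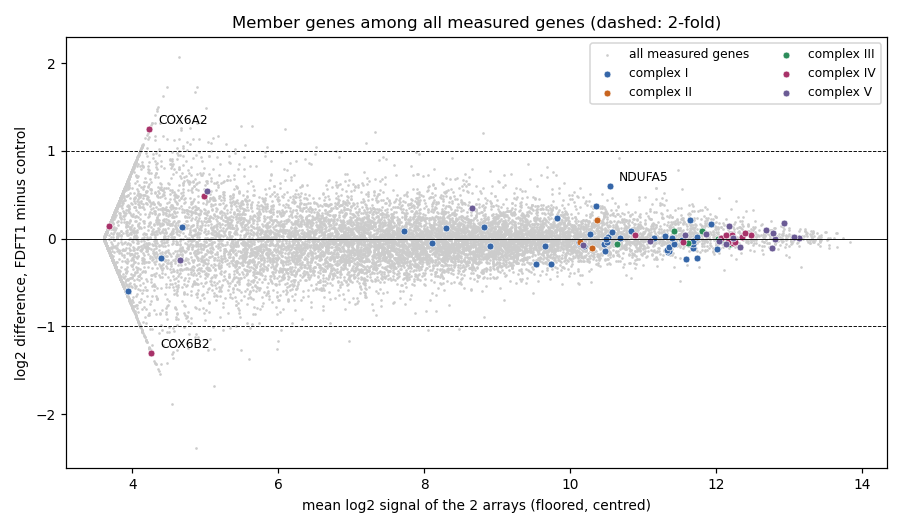
Log2 difference (FDFT1 minus control, centred) against mean log2 signal for all 12968 measured genes in grey and the 88 measured member genes coloured by complex; dashed lines mark 2-fold and points on slanted edges have 1 array at the floor. Most members lie at the right, where differences of all genes are small, and COX6A2 and COX6B2 lie past 2-fold at the dim end.

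Signal range matters for reading these counts, since bright probe sets vary less. Of the 70 structural subunits, 69 had a mean log2 signal of at least 9, and the exception was ATP5MF. Among the 3601 measured genes in that range, 4.42% were higher by at least 0.32 and 2.05% lower, and no gene reached 2-fold either way. Of the 69 subunits 1 was higher by at least 0.32 and 0 were lower. Their SD over genes was 0.13, against 0.17 for all genes of the range. A median of -0.029 stood beside one of 0.010 for all genes of the range, and 58.0% of the subunits were below 0 against 47%. Of the 69 subunits 48 lay at 11 and above, but only 944 of the 3601 genes. There the SD was 0.093 for the subunits and 0.13 for all genes, and 54.2% against 39.9% were below 0. Between 9 and 11 the SD of the 21 subunits was 0.19, against 0.18 for all genes, and 66.7% against 49.6% were below 0. Over the 69 subunits, differences of at least 2 probe-set errors were found for 4 (5.80%), against 8.58% of the 3601 genes. Those 4 were NDUFA5 and NDUFA11 above 0 and NDUFA1 and NDUFA13 below, all of complex I.

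**Figure D2:**
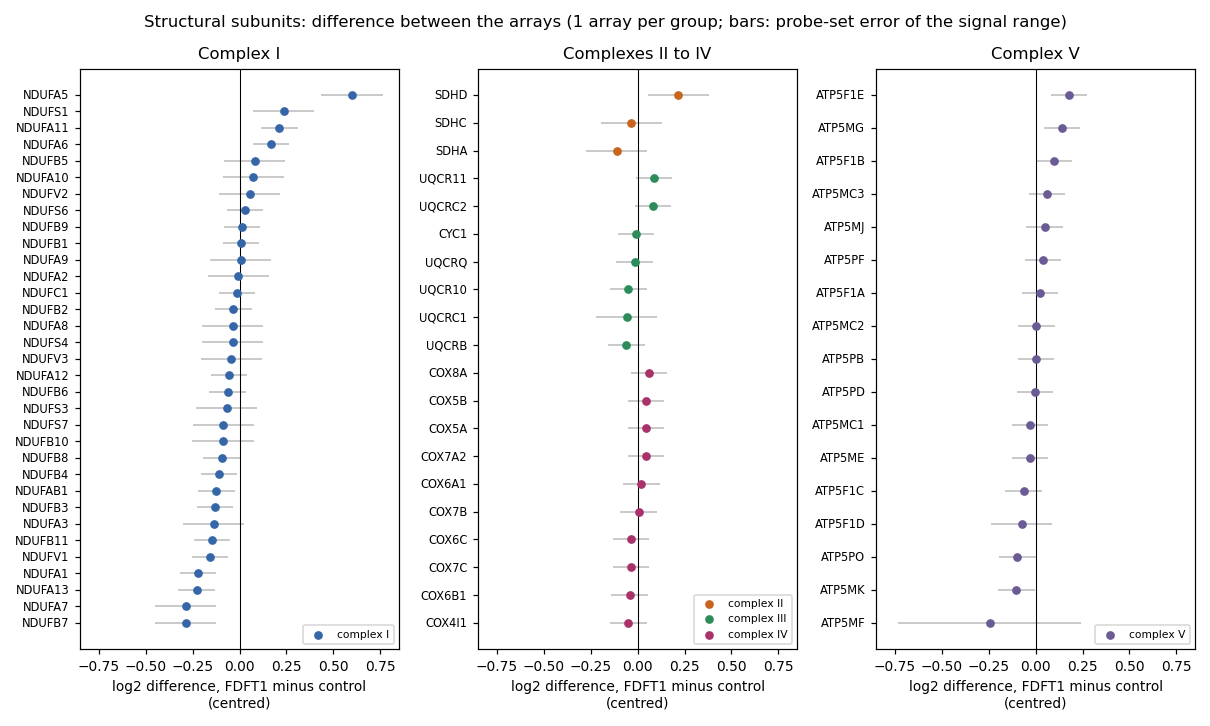
Centred log2 difference (FDFT1 minus control) of the 70 structural subunits, by complex; points are the brightest probe set of a gene and bars the probe-set error of its signal range, not a replicate error. Complex I spans -0.29 to 0.60, whereas the 10 subunits of complex IV lie between -0.049 and 0.060.

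The complexes had medians close to 0 and differed in the spread of their genes. Over all measured members assigned to a complex, the median log2 difference was -0.036 for complex I (44 genes), -0.034 for II (3), -0.016 for III (7), 0.036 for IV (15) and 0.0045 for V (19). Over structural subunits alone the medians were -0.045, -0.034, -0.016, 0.013 and 0.0016 in the same order. The medians of complexes IV and V changed sign to -0.022 and -0.026 under quantile scaling and to -0.013 and -0.027 under loess scaling, and the median of all structural subunits, -0.029, was 0.012 with the mean of all probe sets. For the structural subunits the SD over genes was 0.17 in complex I, 0.17 in II, 0.063 in III, 0.043 in IV and 0.10 in V. The complexes also differed in signal: every subunit of IV had a mean log2 signal of at least 11, and those of II lay between 9 and 11. Over all genes the SD was 0.18 between 9 and 11 and 0.13 at 11 and above. How far signal range accounts for the spread of each complex was not tested. The shift used for centring is larger than any of the medians of the complexes. On the values as deposited, 63 of 70 structural subunits were below 0. Of all measured members 81.8% were below 0 on those values, a larger share than the 67.7% of all genes. Genes are not replicates, and no test of a difference between complexes was possible.

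Complex I, NADH dehydrogenase, held the highest and the lowest structural subunits. Of its 33 subunits 22 were below 0 and 11 above, and under quantile scaling 26 were below and 7 above. With the mean of probe sets the split was 17 below and 16 above. Without probe sets ending in _x_at or _s_at it was 13 and 13, over the 26 genes left, some of them read on dim probe sets. The tilt below 0 was thus not seen under those choices. NDUFA5, an accessory subunit of the peripheral arm that reaches into the matrix, gave signals of 1254 and 1765, 1.51-fold higher with FDFT1 (0.60, error 0.16). Its other measured probe set was dim and lay the other way (15.6 and 11.9, -0.29, error 0.49), and with the mean of both NDUFA5 was at 0.16. The FDFT1 array was thus the higher only on the bright NDUFA5 probe set.

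NDUFS1, the largest of the iron-sulfur subunits that pass electrons from NADH, was at 866 and 947 on its brightest probe set (0.24, error 0.16). The other 4 measured NDUFS1 probe sets were also above 0: 165 and 186 (0.28), 37.7 and 71.5 (1.03, error 0.30), 13.5 and 19.9 (0.66), and 7.36 and 14.3, where the control value was under the floor (at least 0.28). NDUFS1 was thus higher on the FDFT1 array on 5 of 5 probe sets, and 1 of them passed 2-fold. Over measured probe sets with 1 gene, 0.775% were at least 2-fold higher and 0.71% lower; among the 154 member probe sets 3 were higher and 1 was lower.

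The other core subunits of complex I lay closer to 0. NDUFV1, which binds NADH and the flavin, had signals of 2843 and 2368 (-0.16, error 0.097). Its partner in the NADH module, NDUFV2, was at 1261 and 1217 (0.055, error 0.16). In the module that reduces ubiquinone, NDUFS3 was at 1497 and 1328 (-0.067) and NDUFS7 at 863 and 755 (-0.086), both with an error of 0.16. The core subunits therefore did not share a sign, with 2 of 5 above 0.

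The lowest accessory subunits were NDUFB7 and NDUFA7. NDUFB7, in the membrane arm, gave 850 and 648, 1.22-fold lower (-0.29, error 0.16), while its dim probe set lay the other way (20.3 and 23.8, 0.33). NDUFA7, in the peripheral arm, gave 975 and 744 (-0.29, error 0.16), and its dim probe set agreed in sign (33.2 and 25.1, -0.30, error 0.49). NDUFA13, also known as GRIM-19, was at 3463 and 2746 (-0.23, error 0.097) and NDUFA1 at 3832 and 3052 (-0.22, error 0.097), each on 1 probe set; both are membrane-arm subunits. NDUFB8 was below 0 on 3 of 3 probe sets, from 2798 and 2432 on the brightest (-0.096) to 88.6 and 53.2 (-0.63, error 0.30).

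On the other side of 0, NDUFA11, a membrane-arm subunit, gave 3082 and 3318 (0.21, error 0.097). Its second bright probe set was at 2585 and 2414 (0.0073) and a dim one at 19.7 and 12.1 (-0.60, error 0.49), so its probe sets ran both ways. NDUFA6, of the peripheral arm, was at 3822 and 3984 (0.17), and its other probe set lay slightly the other way (474 and 429, -0.038).

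Split by position, the 18 membrane-arm subunits had a median of -0.076 with 13 below 0, and the 14 peripheral-arm subunits -0.022 with 8 below 0; NDUFAB1, the acyl carrier protein, sits in both arms and was at -0.12. The membrane-arm median kept its sign under quantile and loess scaling (-0.10 and -0.093). Without probe sets that may match several transcripts it was 0.030, with 6 of 12 below 0. That setting dropped NDUFA13, NDUFB3, NDUFB6, NDUFB9, NDUFB10 and NDUFB11, all but NDUFB9 below 0 on their brightest probe set. It also read NDUFA11, NDUFB1, NDUFB4 and NDUFB7 on dim probe sets, so both the genes and their signals differ from those of the first median. Of the 8 NDUFAF assembly factors, which help build complex I and do not stay in it, 6 were above 0 and 2 below (median 0.054, and -0.052 on the values as deposited). NDUFAF4 was the highest, with signals of 1197 and 1440 (0.37, error 0.16) and a second probe set at 44.9 and 57.2 (0.45, error 0.30). NDUFAF3 was the lowest, at 510 and 448 (-0.081, error 0.22). The divergent and antisense transcripts were dim: NDUFV2-AS1 was at 19.7 and 12.1 (-0.60, error 0.49), NDUFB2-AS1 at -0.22 and NDUFV1-DT at 0.14. NDUFV2 and NDUFB2 themselves were at 0.055 and -0.033.

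**Figure D3:**
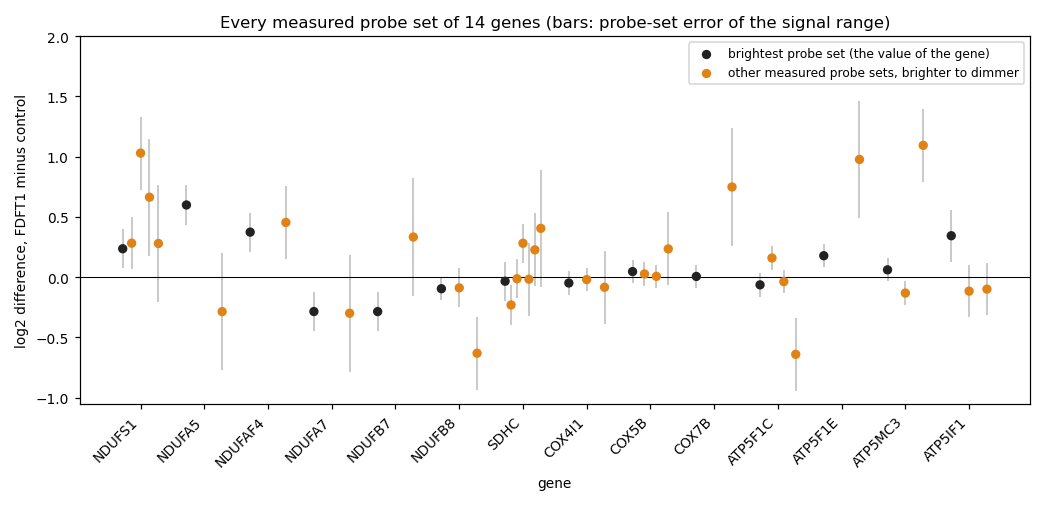
Centred log2 difference (FDFT1 minus control) of every measured probe set of 14 member genes, with the brightest in black and others in orange from brighter to dimmer; bars are the probe-set error of the signal range. All 5 NDUFS1 probe sets and both of NDUFAF4 lie above 0, both of NDUFA7 lie below 0, and those of NDUFA5, NDUFB7 and ATP5MC3 lie on both sides.

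Probe sets of one gene often disagreed. Of the 36 structural subunits with several measured probe sets, 9 had all above 0 and 7 all below, 44.4% in all, against 41.7% of the 2271 genes with a mean log2 signal of at least 9 and several probe sets. The second brightest probe set had the sign of the brightest in 18 of 36 subunits (50%). Among the 6535 genes of any signal range with several measured probe sets it did so in 55.1%. Agreement in sign among the subunits was thus a little above the share among bright genes by the first measure. By the second it was a little below the share among genes of all signal ranges.

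Complex II, succinate dehydrogenase, also works in the tricarboxylic acid cycle and is the one complex with no mitochondrially encoded subunit. SDHD, a membrane anchor, was at 1272 and 1372 (0.22, error 0.16) on its single measured probe set. SDHA, the flavin-bearing catalytic subunit, was at 1362 and 1171 (-0.11, error 0.16). SDHC, the other anchor, was at 1177 and 1069 (-0.034, error 0.16), and its 7 probe sets ran from -0.23 to 0.41 with 3 above 0. The SDHA probe set and the SDHC value come from identifiers ending in _x_at, which mark probes that can also match other transcripts; SDHA has closely related pseudogenes, so its value is uncertain.

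Complex III, the cytochrome bc1 complex, showed no subunit past its probe-set error on its brightest probe set. CYC1, which carries the cytochrome c1 heme, gave 4319 and 3985 (-0.010, error 0.097). The core proteins UQCRC1 and UQCRC2 were at 1684 and 1504 (-0.057, error 0.16) and at 3606 and 3550 (0.083, error 0.097), and a second UQCRC2 probe set was at 0.038. Among the small subunits, UQCRB was lowest (4955 and 4419, -0.059) and UQCR11 highest (2763 and 2725, 0.086). Each had a probe set on the other side of 0, at 3268 and 3458 (0.19) for UQCRB and at 156 and 134 (-0.12) for UQCR11. The signs of UQCRC2 and UQCR11 come from centring, since their deposited signals were slightly lower on the FDFT1 array.

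Complex IV, cytochrome c oxidase, had the narrowest range, and all 10 nuclear structural subunits lay between -0.049 and 0.060. Above 0 were 6 of them, but 3 under quantile scaling. COX4I1, the common form of subunit 4, was at 5049 and 4535 (-0.049, error 0.097), with 3 of 3 measured probe sets below 0 (-0.020 and -0.084 for the others). COX5A, next to it in the enzyme, was at 4587 and 4397 (0.045), and COX5B was at 5789 and 5553 (0.046) with 4 of 4 probe sets above 0. COX8A was highest at 5466 and 5295 (0.060), and COX6B1 was at 3136 and 2829 (-0.043). COX6A1, COX7A2 and COX7B were at 0.020, 0.044 and 0.0058. As deposited, all 10 were lower on the FDFT1 array, so the sign of each value above 0 rests on centring. COXFA4, formerly NDUFA4 and now counted to complex IV, was at 5010 and 4737 (0.025).

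The tissue and stress isoforms of complex IV were at or near the floor. COX6A2, the heart and muscle form of subunit 6A, gave 11.5, under the floor, and 27.96, at least 2.38-fold higher (error 0.49 on the log2 scale). COX6B2, a testis form, gave 31.2 and 8.93, the latter under the floor, at least 2.47-fold lower (-1.30, error 0.49). These were the 2 member genes past 2-fold. Among the 2853 genes with a mean log2 signal under 5, where probe sets vary most, 2% were at least 2-fold higher and 2.07% lower.

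The remaining isoforms were as dim. COX4I2, the form of subunit 4 known from lung and low oxygen, was at 27.8 and 36.2 (0.49, error 0.49), a difference about the size of its error. COX7B2, a testis form, was at 4.98 and 13.0, with the control under the floor. COX7A1, the muscle form, and COX8C, a testis form, were under the floor on both arrays (1.05 and 6.76, and 0.925 and 6.05), as was the pseudogene COX6A1P1 (12.1 and 1.20). COXFA4L2, a hypoxia-induced relative of COXFA4, was at 3.66 and 11.9. COX7A2L, which links complexes III and IV in supercomplexes, was measured well at 1936 and 1845 (0.036, error 0.16).

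In complex V, the ATP synthase, 9 of 17 structural subunits were above 0 and 8 below under centring. This split depended on the scaling: under both quantile and loess scaling 6 were above 0 and 11 below, and on the values as deposited 2 were above and 15 below. In its catalytic F1 head, ATP5F1A (alpha) was at 8864 and 8362 (0.022) and ATP5F1B (beta) at 6583 and 6541 (0.097), both with an error of 0.097. ATP5F1C (gamma, the rotating shaft) was at 4773 and 4242 (-0.064), and its 4 probe sets ran from -0.64 to 0.16. ATP5F1E (epsilon) was the highest of the complex at 7578 and 7964 (0.18, error 0.097), and its dim second probe set was at 22.1 and 40.4 (0.98, error 0.49). The F1 and Fo parts had medians of 0.022 (5 genes) and -0.00020 (12 genes).

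ATP5MC1, ATP5MC2 and ATP5MC3 encode the same mature ring protein, subunit c, with different targeting sequences. They were at 2288 and 2084 (-0.029), 4964 and 4626 (0.0045), and 7163 and 6941 (0.061), each with an error of 0.097, so no ring gene passed its error on its brightest probe set. A second bright ATP5MC3 probe set was at 7145 and 6058 (-0.13) and another, dimmer one at 60.3 and 120 (1.09, error 0.30), at least 2-fold higher. The probe sets of ATP5MC3 thus gave different values, and whether these come from different transcripts was not tested.

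Of the membrane and stalk subunits, ATP5MG (subunit g) was at 4575 and 4684 (0.14) under centring, 0.11 under loess and -0.058 under quantile scaling. Another ATP5MG probe set of nearly equal brightness was at 4848 and 4414 (-0.029), and 3 of its 4 probe sets lay above 0. Which bright probe set stands for the gene can change with the scaling, so the sign of ATP5MG rests on that choice too. ATP5MK, a small membrane subunit, was at 7501 and 6493 (-0.10), and ATP5PO, the OSCP subunit that joins F1 to the stalk, at 5517 and 4794 (-0.097) with a dimmer probe set at 149 and 186 (0.43). ATP5IF1, which blocks the synthase when it runs backwards, was at 371 and 438 (0.34, error 0.22) on its brightest probe set, and the others lay below 0 (-0.12 and -0.10). The pseudogene ATP5MC2P1 was dim, at 27.9 and 37.7 (0.54, error 0.30).

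Genes that work with the subunits were taken from fixed lists. Of 46 assembly factors outside the symbol rule 45 were measured, with 24 above 0 and 21 below and a median of 0.0052; none reached 2-fold. By at least 0.32, 3 were higher and 4 lower, against 12.5% higher and 11.7% lower over all genes, so neither count stood above the background. The higher ones included SDHAF3, a complex II assembly factor (205 and 312, 0.71, error 0.22), and NUBPL, which delivers iron-sulfur clusters to complex I (144 and 190, 0.50, error 0.22). UQCC2 for complex III was higher too, but dim (25.5 and 35.0, 0.56, error 0.49), a difference only slightly past its error. Lowest were ACAD9 for complex I (265 and 186, -0.40), SURF1 for complex IV (534 and 377, -0.39), TMEM186 (185 and 132, -0.39) and COQ8A of ubiquinone synthesis (238 and 174, -0.34).

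Mitochondrial DNA supplies the other subunits of the same complexes. Of 7 measured genes, 6 were below 0 and the median was -0.11. ND2 was at 9112 and 7327 (-0.21) and ND4 at 8834 and 7196 (-0.19), both complex I, and a second ND4 probe set was at -0.27. COX1 and COX2, the catalytic subunits of complex IV, were at 5485 and 4718 (-0.11) and at 12838 and 11072 (-0.11). ATP6 of complex V was at 7027 and 6282 (-0.056). ND6, which is transcribed from the opposite strand of mitochondrial DNA to the other 6, was at 166 and 173 (0.17). The list kept its sign under quantile and loess scaling (-0.12 and -0.14). With the probe sets ending in _x_at or _s_at left out, 4 genes remained with a median of 0.044. That setting dropped ND2, COX1 and COX3. Of the genes left, ND4 (-0.27) and COX2 (12384 and 10883, -0.080) were bright and below 0. ND6 was at 0.17, and ATP6 was read on a dim probe set (52.1 and 55.6, 0.20).

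The list of regulators and mitochondrial transcription genes had 14 measured members of 15, with 9 above 0, 5 below and a median of 0.052. GABPA, the ETS factor named above, was at 222 and 288 (0.48, error 0.22), but a dimmer GABPA probe set was lower on the FDFT1 array (58.4 and 42.3, -0.36). NRF1 was at 165 and 120 (-0.36, error 0.22), with 4 of its 5 probe sets below 0. TFAM and TFB2M, which start transcription of mitochondrial DNA, were at 792 and 894 (0.28) and at 1432 and 1632 (0.30). The TFAM probe sets ran both ways: a second one of similar brightness was at 702 and 503 (-0.37), and 2 of the 4 lay below 0. POLRMT, the mitochondrial RNA polymerase, was at 631 and 493 (-0.25), and PPRC1, a coactivator of the PGC-1 family, at 682 and 516 (-0.30). CYCS, cytochrome c, was at 7875 and 7543 (0.044). The regulators thus spread to both sides of 0, with 1 of 14 higher and 2 lower by at least 0.32, beside 12.5% and 11.7% of all genes.

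**Figure D4:**
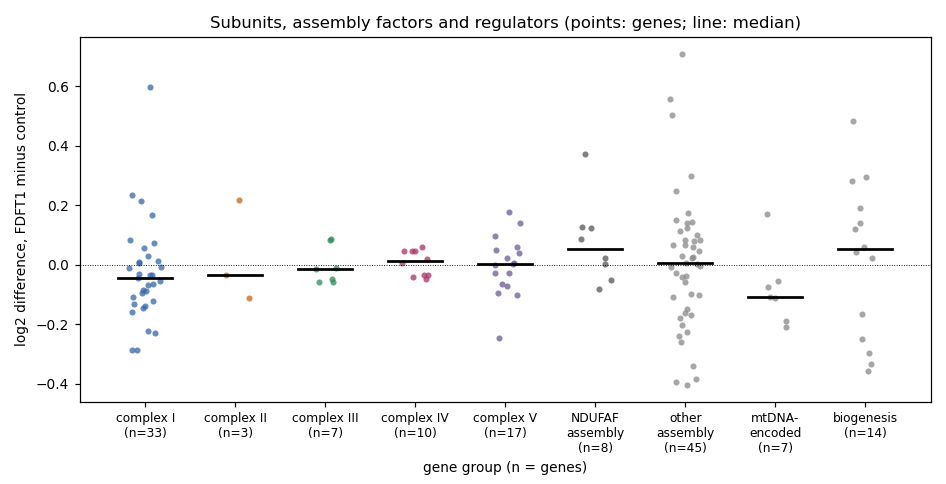
Centred log2 difference (FDFT1 minus control) of the structural subunits by complex, the NDUFAF factors, the other assembly factors, subunits encoded in mitochondrial DNA and the regulators; points are genes and lines medians. The lines of complexes I to V lie between -0.045 and 0.013, and that of the mitochondrially encoded subunits lies at -0.11.

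Set beside gene groups of similar kind, the subunits also had a median near 0, though the lowest of these groups, and the largest share below 0. The 75 measured mitochondrial ribosomal proteins had a median of -0.011 with an SD over genes of 0.14 and 38 below 0 (50.7%). The 59 cytosolic ribosomal proteins had a median of 0.0019 with an SD of 0.22, 27 below 0 (45.8%) and 1 at least 2-fold higher. The 70 structural subunits had a median of -0.029, an SD of 0.13 and 41 below 0 (58.6%). No test of a difference between these groups was possible with 1 array per group.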

How the data were processed

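RNA of 2 CL1-0 cultures was measured, 1 array each, grouped by sample title. The authors deposited linear signal intensities made with MAS5, per the submitters' processing notes; no source used here states its version or scaling target, or any detection call. For arrays, their number limits the precision. Computed here (Python 3.11.15, numpy 2.4.6, pandas 2.3.3, statsmodels 0.14.6): 62 control probe sets were set aside; log2 signals were centred on the median difference of 25203 probe sets at or above 12.2 on both arrays; lower values were raised to that floor. Genes came from the platform annotation (single symbols only). A gene took its brightest measured probe set. Probe-set error comes from genes whose 2 brightest probe sets share a signal range: the SD over genes of the gap between their differences, divided by the square root of 2. Members, lists, motifs and the rule for named genes (role-defining subunits, extremes of each complex, isoforms, any 2-fold change) were chosen with earlier results of these data known; NDUFA1, NDUFA6, NDUFA11, NDUFA13, NDUFB8 and the list genes were named after their values were seen. Alternatives were other scalings, floors, probe-set choices and thresholds. The steps were tested on simulated data.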

Additional observations from a re-analysis of the deposited data

How the results depend on the processing

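No paired analysis was possible because each group holds 1 array. Under quantile scaling the median of all members, -0.0086, was -0.039, and under loess -0.032; with the mean of probe sets it was 0.021, so its sign rests on the choice of probe set. Members above 0 numbered 42, and 31, 33 and 51 under those settings. Among structural subunits, 29 were above 0 under centring and 19 under quantile scaling; in complex I these counts were 11 and 7, in its membrane arm 5 and 3 and in complex IV 6 and 3. On the values as deposited all genes shift by -0.11: the median of all members was -0.11, those of complexes I to V -0.14, -0.14, -0.12, -0.070 and -0.10, and those of the assembly, mitochondrially encoded and regulator lists -0.10, -0.21 and -0.054; 16 members were above 0 and 72 below, and 8 were lower by at least 0.32. Complex II, with 3 genes, was at 0.088 with the mean of probe sets and 0.099 without _x_at and _s_at probe sets; the latter also gave 10 members higher and 4 lower by at least 0.32, and 0.044 for the mitochondrially encoded list. With no floor 4 members were at least 2-fold higher and 2 lower, whereas with the floor at the 75th percentile (signal 99.4) 0 were higher and 0 lower, and 3 were higher and 0 lower by at least 0.32. At 1.5-fold 2 members were higher and 2 lower. COX7B2 was at 1.49 with no floor. Among single genes, NDUFB7 was at 0.33 without _s_at probe sets. No cause of these changes was tested beyond the settings themselves. With 1 array per group, variation between cultures is unknown.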
